A study of Mus musculus with 6 samples.

Results

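The lysosome is the acidic compartment in which cells take apart material from endocytosis, phagocytosis and autophagy. Soluble hydrolases are tagged with mannose 6-phosphate in the Golgi and carried there by receptors, and membrane proteins form its wall, pump protons into it and export the products. Dendritic cells depend on this compartment to cut antigens for presentation, and macrophages use it to clear engulfed lipid and debris. Many of its genes share a promoter element (CLEAR) bound by TFEB and its relatives. Cathepsins were left out here.

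A set of 33 genes for lysosomal hydrolases, their helpers and membrane proteins was described, taken by gene name from 54532 annotated genes. All 33 were found and all passed the filter on low counts, so none was lost, and the lowest count of any of them in any library was 280. The libraries came from cultured mouse dendritic cells, 3 not treated with DB2313 (control) and 3 treated with it, a small molecule that the study used to inhibit the transcription factor Spi1, also called PU.1. The labels gave no strain, age, dose or time and did not say whether control cells received a vehicle, and the methods of the study spoke of macrophages. The columns of the treated libraries bore the name of Spi1, not of DB2313, and every direction below rests on reading them as the DB2313 libraries. The labels did not say whether replicates were separate cultures, so p-values measure only the spread between these libraries, which may be technical.

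The libraries held 16146743 to 19764677 counts. Levels are given as CPM, counts relative to library size after scaling by the TMM method. Of the 14174 genes tested with edgeR's quasi-likelihood test, 4.66% were higher and 5.94% lower with DB2313 at an adjusted p under 0.05, and this is what "called" means below. Replicates differed by more than sampling noise, and the largest distance was between DB2313 replicates 1 and 3 (chi-square per degree of freedom of 19.4). Spi1 transcripts lay at 345 to 380 CPM in control and 309 to 349 CPM with DB2313 (edgeR adjusted p = 0.206). This RNA level is not a direct measure of whether Spi1 was inhibited, which was not tested. Of 15 dendritic cell markers, 1 was called higher and 3 lower, and their summed level was 13590 to 13840 CPM in control and 11640 to 13450 CPM with DB2313. Cd209a was near 0 in both groups. The marker called higher, Clec9a, was at 0.615 to 1.07 CPM in control and 2.55 to 4.33 CPM with DB2313. Those called lower had control and DB2313 means of 172.2 and 115.5 CPM (Itgax), 152 and 113 CPM (Irf4) and 106.2 and 71.47 CPM (Batf3). Of the tested dendritic cell markers, 11 had a log2 fold change below 0 and 3 above. Of 15 macrophage markers, 2 were called higher and 9 lower, with sums of 10800 to 12220 CPM in control and 9597 to 10500 CPM with DB2313, and none of them was at 0. Whether these shifts bear on the lysosomal genes was not tested, and in bulk RNA fewer cells of a type cannot be told apart from less RNA per cell.

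Calls among the lysosomal hydrolase and membrane protein genes were too few to be set apart from the shares of all genes tested. None of the 33 was called higher, against 4.66% of all genes tested, and 2 were called lower, against 5.94%. These were Galc, a sphingolipid hydrolase, and Scarb2, a membrane protein that escorts an enzyme. The fitted change was under 10% in either direction for 24 of the 33 genes (72.7%) and for 46.5% of all genes tested. The lowest count in any library was 280 among the 33 genes and 0 among all genes tested. These shares were not matched for abundance. The median log2 fold change was -0.028 for the 33 genes and 8.2e-04 for all genes tested. Together the 33 genes took 1.59% to 1.70% of all counts in control and 1.58% to 1.69% with DB2313, so the groups overlapped. This share rests largely on 1 gene, Psap. Its control mean was 8802 CPM, against 16140 to 17020 CPM for the 33 genes summed in the control libraries.

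**Figure D1:**
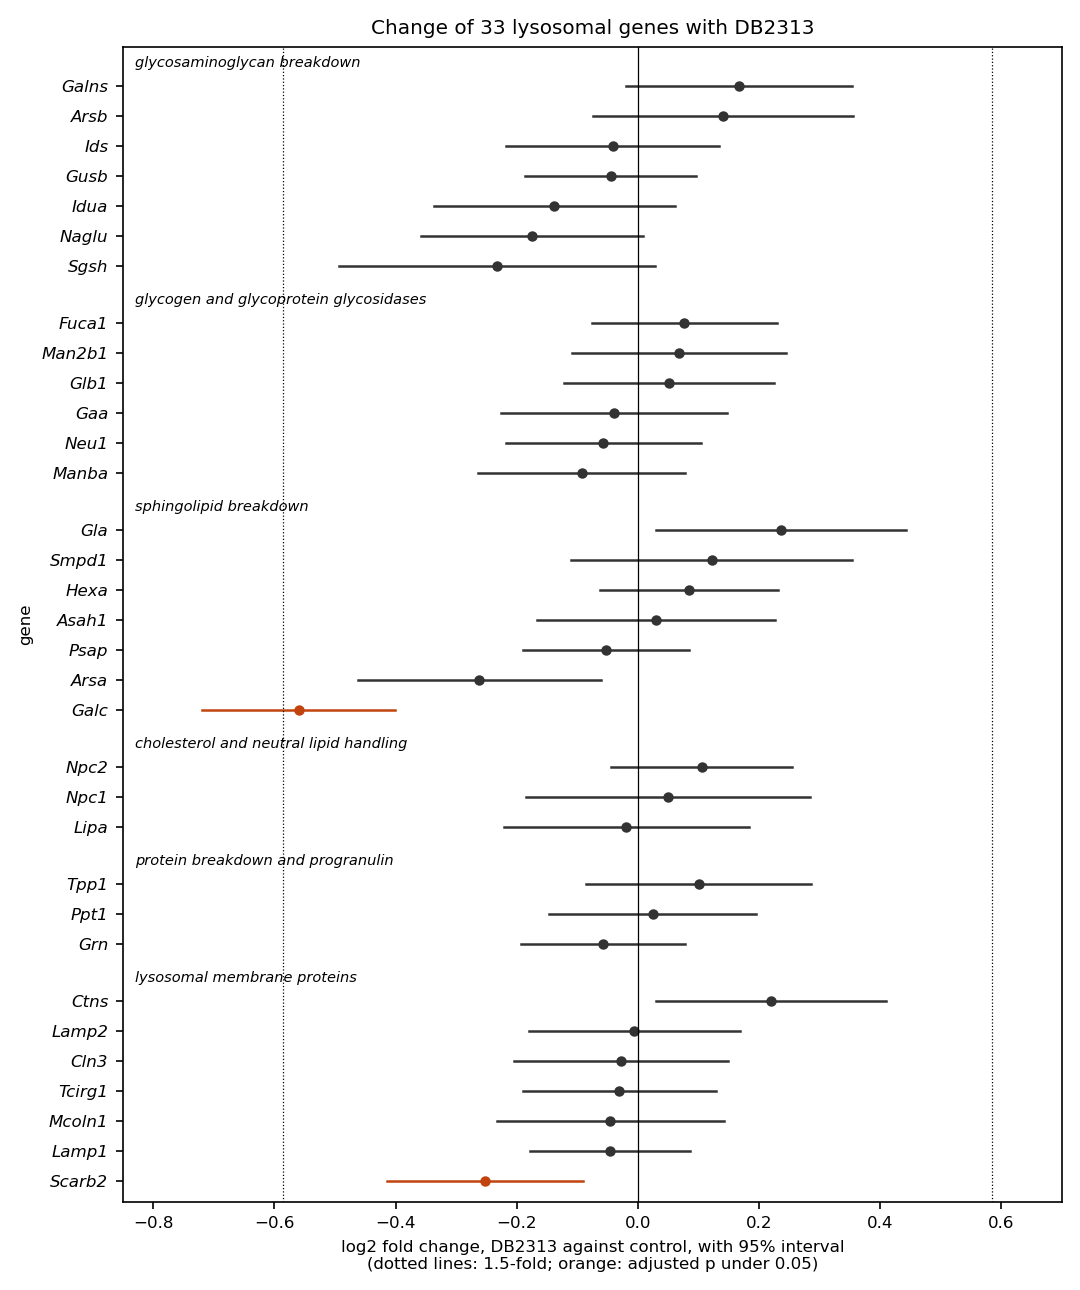
Log2 fold change (DB2313 against control) of the 33 genes by role, with the 95% interval from edgeR's quasi-likelihood fit on 3 libraries a group. Galc and Scarb2, in orange, had an adjusted p under 0.05, and only the interval of Galc reached past the dotted 1.5-fold line.

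The intervals limited the size of an undetected change only against the spread between these libraries, which may be technical. The 95% interval of the fold change lay within 1.5-fold in both directions for 32 of the 33 genes, Galc being the exception, and within 1.25-fold for 22. Among all genes tested, 62.4% and 28.8% met these bounds, but they include genes of lower counts and were not matched for abundance. The median standard error of the log2 fold change was 0.083 for the 33 genes and 0.12 for all genes tested. The median coefficient of variation between control libraries was 6.09% for the 33 genes against 8.40% for all genes tested, and between DB2313 libraries 5.71% against 10.8%. An unadjusted p under 0.05 was found for 5 of the 33 genes (15.2%) and for 23.3% of all genes tested.

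Galc encodes galactosylceramidase, which removes galactose from myelin-type sphingolipids and whose loss causes Krabbe disease. It lies on the minus strand of chromosome 12 (98202294 to 98259459, GRCm38). Its level was 83.5, 81.5 and 80.6 CPM in control replicates 1 to 3 and 56.2, 55.9 and 54.6 CPM in DB2313 replicates 1 to 3. The libraries of each group sat close together and the groups were far apart. The mean fell from 81.9 ± 1.48 to 55.6 ± 0.877 CPM (SD, n = 3 each). On the log2 scale this was -0.56 ± 0.07 (SE), and the adjusted p from edgeR was 2.03e-04. The 95% interval ran from a fall of 39.2% to one of 24.2% (-39.2% to -24.2%). Its gene model is the longest of the set, at 14879 bp, and with an offset for gene length the value was -0.45 on the log2 scale (edgeR adjusted p of 0.00123). Galc stayed called when each library was left out in turn, with log2 fold changes of -0.57 to -0.54.

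Scarb2 encodes a membrane protein of late endosomes and lysosomes that carries glucocerebrosidase to them. It lies on the minus strand of chromosome 5 (92441314 to 92506833). Its level was 188, 195 and 172 CPM in the control libraries and 151, 148 and 167 CPM in the DB2313 libraries. The groups did not overlap, but control replicate 3 and DB2313 replicate 3 were only a few CPM apart. On the log2 scale the change was -0.25 ± 0.08 (SE), and the adjusted p from edgeR, 0.0458, was close to the threshold. The call was lost when libraries were scaled by their totals (edgeR adjusted p of 0.0808). It was also lost without control replicate 1 (0.162), 2 (0.233) or 3 (0.0619) and without DB2313 replicate 1 (0.0552) or 2 (0.245), again as edgeR adjusted p.

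For 5 of the 33 genes the CPM ranges of the groups were separate, 2 higher (Galns, Ctns) and 3 lower (Galc, Scarb2, Arsa). Among all genes tested, 12.9% did not overlap with the DB2313 libraries higher and 14.5% with them lower. Arsa encodes arylsulfatase A, which removes sulfate from sulfatide and so makes the lipid that Galc cleaves. It was at 43.6, 38.5 and 42.7 CPM in control and 37.3, 34.8 and 32.0 CPM with DB2313. Its highest DB2313 library lay just under its lowest control library, and its log2 fold change of -0.26 ± 0.09 (SE) was not called (edgeR adjusted p of 0.0959). Without DB2313 replicate 1 it was called (-0.31, edgeR adjusted p of 0.0457). Some exons of Arsa overlap an antisense transcript that had 81 counts over all libraries, against 3845 for Arsa.

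Ctns encodes cystinosin, the transporter through which cystine leaves the lysosome. It was at 30.7, 32.6 and 31.6 CPM in control and 37.5, 35.2 and 37.9 CPM with DB2313. All DB2313 libraries lay above the control libraries. Its log2 fold change, 0.22 ± 0.09 (SE), was not called (edgeR adjusted p of 0.146). Galns encodes a sulfatase of keratan sulfate and chondroitin sulfate. It was at 38.6, 45.1 and 42.7 CPM in control and 47.7, 48.3 and 45.8 CPM with DB2313, so its groups were separated by less than 1 CPM. On the log2 scale the fitted value of Galns was 0.17 ± 0.09 (SE, edgeR adjusted p of 0.273).

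**Figure D2:**
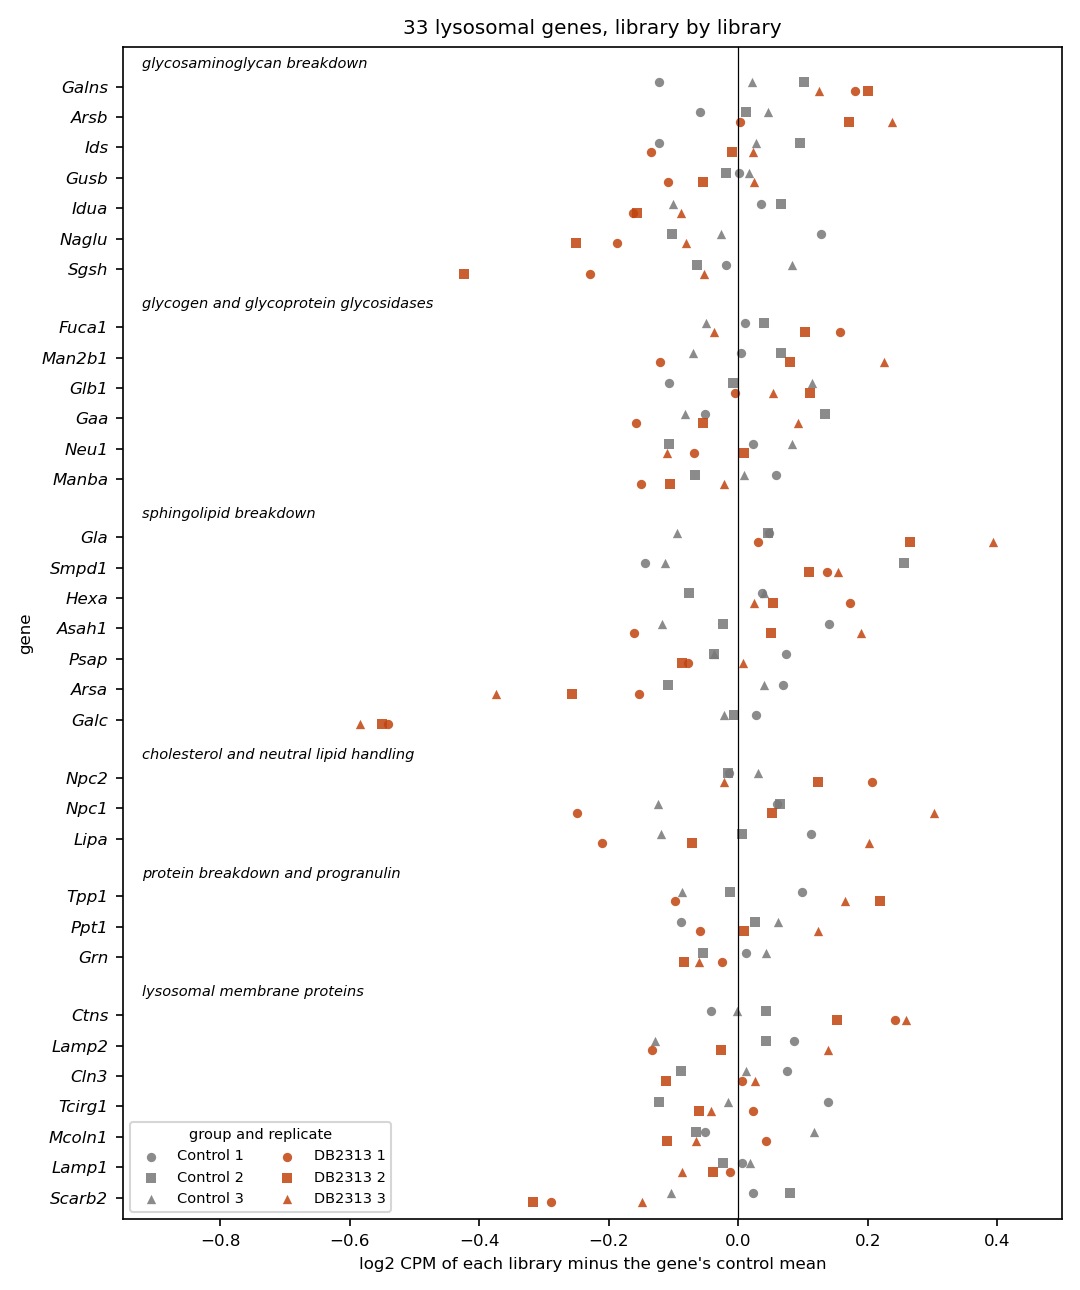
Each point is 1 library: the log2 CPM of a gene minus its control mean (x axis), for the 33 genes by role (y axis), with control in grey and DB2313 in orange and a symbol for each replicate number. Galc stands apart from its controls in all 3 DB2313 libraries, whereas most genes have overlapping groups and Npc1, Lipa and Gla spread widely among the DB2313 libraries.

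The genes were then read by role, beginning with the 7 enzymes of glycosaminoglycan breakdown, which take heparan, dermatan, keratan and chondroitin sulfate apart and whose loss causes the mucopolysaccharidoses. None was called. Idua, the iduronidase, had a control mean of 32.8 CPM and a DB2313 mean of 29.8 CPM (log2 fold change of -0.14 ± 0.09, SE). Ids, the iduronate sulfatase, had 87.9 and 85.4 CPM. Sgsh, the heparan sulfamidase, was at 19.7, 19.1 and 21.1 CPM in control and 17.0, 14.8 and 19.2 CPM with DB2313. DB2313 replicate 3 of Sgsh reached into the control range, and its log2 fold change was -0.23 ± 0.12 (SE), with the widest interval to the low side among genes not called (-28.9% to 1.99%). Naglu, a glucosaminidase of heparan sulfate, had 70.1 and 62.1 CPM (-0.17 ± 0.09 on the log2 scale, SE). Gusb, the beta-glucuronidase, had 276 and 267 CPM. Arsb, which removes sulfate from dermatan sulfate, was at 24.8, 26.1 and 26.7 CPM in control and 25.9, 29.1 and 30.5 CPM with DB2313, with overlap in DB2313 replicate 1. The summed level of these 7 genes was 549.7 to 558.1 CPM in control and 517.1 to 562.1 CPM with DB2313.

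The 6 glycosidases of glycogen and of glycoprotein sugars lay nearer to no change, and none was called. Their log2 fold changes ran from -0.09 ± 0.08 (SE) for Manba, the beta-mannosidase, to 0.08 ± 0.07 for Fuca1, the fucosidase. Gaa, the acid glucosidase that degrades glycogen and is lost in Pompe disease, had means of 89.2 ± 7.37 and 86.8 ± 7.64 CPM (SD, n = 3 each). Glb1, the beta-galactosidase, had 77.0 and 79.8 CPM, and Neu1, the sialidase, had 125 and 120.1 CPM. Man2b1, the alpha-mannosidase, was at 505, 528 and 480 CPM in control and 464, 533 and 590 CPM with DB2313. The DB2313 libraries of Man2b1 thus reached both below and above the control range.

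Among the 7 genes of sphingolipid breakdown, Galc was called lower and no other was called. Gla, the alpha-galactosidase lost in Fabry disease, was at 54.6, 54.6 and 49.5 CPM in control and 54.0, 63.5 and 69.4 CPM with DB2313. DB2313 replicate 1 lay inside the control range and the other DB2313 libraries above it. Its log2 fold change, 0.24 ± 0.10 (SE), was the highest of the set (edgeR adjusted p of 0.148). Without DB2313 replicate 1 it was called (0.33, edgeR adjusted p of 0.0126). Hexa, the alpha subunit of hexosaminidase, had 405 and 429 CPM, and Smpd1, the acid sphingomyelinase, had 34.1 and 37.1 CPM. Asah1, the acid ceramidase, was at 175.8 ± 16.1 and 179.4 ± 21.6 CPM (SD, n = 3 each). Psap encodes the precursor of the saposins, which present sphingolipids to these enzymes.

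Psap was by far the most abundant of the set and ranked 2 by CPM among the genes tested. It was at 9262, 8574 and 8569 CPM in control and 8338, 8280 and 8845 CPM with DB2313, and the groups overlapped. Its fitted log2 value was -0.05 ± 0.06 (SE), with a 95% interval of -12.3% to 6.02%. Per kilobase of gene model, which allows a comparison between genes, the control level was 3208 CPM for Psap, 507 for Lamp1, 227 for Grn and 223 for Npc2. At the other end were Galc at 5.50, Sgsh at 4.52 and Arsb at 4.29 CPM per kilobase. The value of Galc depends on its long gene model of 14879 bp. By CPM, without regard to length, Galc ranked 2820 among the genes tested. Of the genes tested, 99.9% were lower than Psap on this scale and 44.6% were lower than Arsb.

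**Figure D3:**
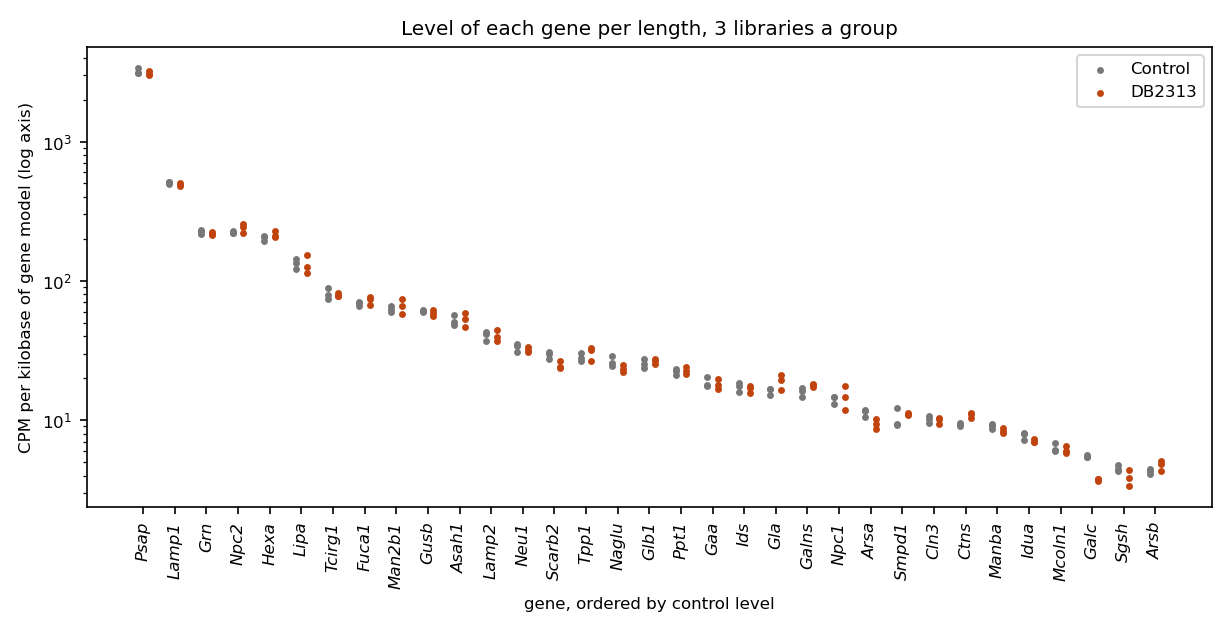
Level of each of the 33 genes in CPM per kilobase of gene model (log axis), 1 point per library, 3 control libraries in grey and 3 DB2313 libraries in orange, ordered by the control mean. Levels run from 3208 for Psap to 4.29 for Arsb in control, and the order is set by differences between genes that are far larger than those between the groups.

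The 3 genes of cholesterol and neutral lipid handling were not called, but their DB2313 libraries were spread. Lipa, the acid lipase that frees cholesterol from esters taken up with lipoproteins, was at 426, 396 and 363 CPM in control and 340, 375 and 453 CPM with DB2313. Npc1, the membrane protein that exports this cholesterol, was at 158, 158 and 139 CPM in control and 127, 157 and 187 CPM with DB2313. For both genes DB2313 replicate 1 was below and DB2313 replicate 3 above all control libraries. Npc2, the soluble partner that hands cholesterol to Npc1, went the other way, with 1200, 1198 and 1238 CPM in control and 1398, 1320 and 1193 CPM with DB2313. Its fitted log2 value was 0.11 ± 0.07 (SE, edgeR adjusted p of 0.407).

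The 3 genes of protein breakdown and progranulin were not called. Tpp1, a peptidase, had 146.5 ± 9.58 and 157 ± 17.8 CPM (SD, n = 3 each). Ppt1, which removes palmitate from proteins, had 81.9 and 83.3 CPM. Grn encodes progranulin, a secreted and lysosomal protein whose loss causes neuronal lipofuscinosis. It was at 794, 758 and 811 CPM in control and 774, 743 and 755 CPM with DB2313, with a 95% interval of the change of -12.5% to 5.58%.

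Of the 7 membrane proteins, Scarb2 was called lower and the others were not called. Lamp1, a heavily glycosylated protein that lines the lysosome, was at 1363, 1334 and 1373 CPM in control and 1345, 1320 and 1277 CPM with DB2313. DB2313 replicate 1 was inside the control range. The log2 fold change of Lamp1 was -0.05 ± 0.06 (SE), with a 95% interval of -11.6% to 6.13%. Lamp2, its relative that also serves in autophagy, had 385 and 384 CPM, and the sign of its log2 fold change (-0.0057) turned under other settings. Mcoln1, a calcium channel, had 47.6 and 46.2 CPM. Cln3, lost in juvenile neuronal lipofuscinosis, had 58.5 and 57.4 CPM, and Tcirg1, a membrane subunit of the proton pump, had 361 and 354 CPM.

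Reads of genes that overlap on opposite strands could not be told apart, since the strandedness of the libraries was not given in the sources used here. Glb1 and Tmppe overlap on the same strand, where strandedness would not separate them. Exons of 12 of the 33 genes overlap those of another gene. For 5 of them the partners had over 10% of their counts, namely Cln3 (with Apobr), Glb1 (with Tmppe), Idua (mainly Dgkq), Npc1 (mainly Rmc1) and Ppt1 (with Cap1). Over all libraries Apobr had 9763 counts against 5853 for Cln3, and Cap1 had 83180 against 8358 for Ppt1. How many reads of a partner were counted for these genes is not known, so their levels are uncertain. Galc overlaps an antisense transcript that had 2 counts in all libraries, and no exon of Scarb2 overlaps another gene.

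Promoter sequences were then examined for the element of TFEB and for a PU.1 motif. RefSeq windows of 300 bases (GRCm38.p6, 250 before to 50 after a start) were matched for 30 of the 33 genes. The core of the CLEAR element, CACGTG, was present in 9 of the 30 genes (30.0%), in 11.5% of the tested genes with a window and in 7.15% of all windows. The longer form TCACGTGA, each of which holds the core, was present in 3 of the 30 genes (Cln3, Gla and Mcoln1), in 2.09% of the tested genes with a window and in 0.974% of all windows. GAGGAAGT, the PU.1 motif searched, was present in Gla and Gusb, in 4.16% of the tested genes with a window and in 3.20% of all windows. Both strands were searched for exact matches. The 9 genes with the core were Arsa, Cln3, Gaa, Gla, Glb1, Lamp1, Mcoln1, Naglu and Sgsh, and none of them was called. Of all genes tested 4.66% were called higher and 5.94% lower, so 9 genes are too few to relate the core to a call. A match is a description of letters and not a bound site.

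The windows of the called genes Galc (chr12:98259460-98259709, minus strand) and Scarb2 (chr5:92505658-92505907, minus strand) are shown because they held none of the motifs searched. That of Scarb2 lies inside the longest annotated extent of the gene. Lamp1 (chr8:13158911-13159160, plus strand) is shown because it had the most copies of the core, 4. They lie at 61, 45, 28 and 15 bases before its start (-61, -45, -28 and -15). For Gla (chrX:134601126-134601178, minus strand), 53 bases around the PU.1 motif are shown, and its copies of the longer form lie at -228 and -195 from its start. Each sequence reads 5′ to 3′ on the strand of the gene, from RefSeq (GRCm38.p6), and ends just before the start except that of Gla. Capitals mark motif matches, and in Gla they are the PU.1 motif on the opposite strand.
Galc: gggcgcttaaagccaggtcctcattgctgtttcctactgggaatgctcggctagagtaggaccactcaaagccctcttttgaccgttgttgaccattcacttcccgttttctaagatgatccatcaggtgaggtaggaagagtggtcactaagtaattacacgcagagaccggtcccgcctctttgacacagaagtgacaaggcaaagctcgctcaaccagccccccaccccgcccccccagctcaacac
Scarb2: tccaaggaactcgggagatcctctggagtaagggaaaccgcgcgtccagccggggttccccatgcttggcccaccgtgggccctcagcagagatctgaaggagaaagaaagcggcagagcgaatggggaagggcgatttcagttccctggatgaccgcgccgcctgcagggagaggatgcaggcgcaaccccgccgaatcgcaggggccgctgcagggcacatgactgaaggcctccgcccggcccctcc
Gla: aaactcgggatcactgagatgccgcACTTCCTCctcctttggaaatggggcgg
Lamp1: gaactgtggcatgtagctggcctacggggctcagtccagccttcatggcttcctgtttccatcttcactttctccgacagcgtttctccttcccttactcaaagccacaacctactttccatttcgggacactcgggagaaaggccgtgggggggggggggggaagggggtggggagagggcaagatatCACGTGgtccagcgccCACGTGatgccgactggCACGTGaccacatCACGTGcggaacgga

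Other lysosomal genes, from lists written with earlier results of these data known, were read from the same fit. Of 104 such genes tested, 9 were called higher and 9 lower, against 4.66% and 5.94% of all genes tested. Without control replicate 1, 2 or 3 or DB2313 replicate 2, 4, 3, 3 and 4 were called higher and 6, 6, 7 and 6 lower, and without DB2313 replicate 3, 17 were called higher and 11 lower. Among 25 other hydrolases and activators, 3 were called in each direction. Pla2g15, a lysosomal phospholipase, fell from 113 to 80.8 CPM (log2 fold change of -0.48 ± 0.08, SE, edgeR adjusted p of 0.00106). Scpep1, a carboxypeptidase, fell from 244 to 189 CPM (-0.37 ± 0.07, edgeR adjusted p of 0.00194). Rnaset2b, a ribonuclease with a near-identical neighbour that makes its value uncertain, rose from 1.70 to 4.21 CPM.

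Among 29 other membrane proteins, 3 were called higher and 1 lower. Slc15a3, a transporter of histidine and small peptides, was at 352, 364 and 365 CPM in control and 253, 221 and 243 CPM with DB2313 (log2 fold change of -0.59 ± 0.07, SE, edgeR adjusted p of 7.17e-05). Laptm4a rose from 176 to 247 CPM and Tpcn1, a cation channel of endolysosomes, from 72.6 to 102 CPM. All 3 DB2313 libraries lay outside the control range for each of these genes.

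The vacuolar proton pump acidifies the lysosome. Of 17 listed subunit genes tested, 3 were called higher and 1 lower. Tcirg1, a pump subunit among the 33 genes, is not in this list. Atp6v0d2, a subunit form of osteoclasts and some myeloid cells, was at 71.0, 65.0 and 55.9 CPM in control and 32.9, 28.0 and 27.4 CPM with DB2313. This was the strongest fall among the 104 genes by adjusted p, at -1.12 ± 0.11 on the log2 scale (SE) and an adjusted p of 8.90e-06 in edgeR. Atp6v1e1 rose from 183 to 231 CPM and Atp6v1b2 from 478 to 563 CPM. The summed level of the 18 listed subunits was 2925 to 2995 CPM in control and 3024 to 3278 CPM with DB2313, without overlap and without a test. Tcirg1, left out of this sum, was at 397, 331 and 356 CPM in control and 366, 345 and 350 CPM with DB2313. The separation is thus stated for the listed subunits only.

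Of 15 genes of hydrolase modification and sorting, most of them for mannose 6-phosphate tagging or transport, 3 were called lower and none higher. Gga2 and Gga3, adaptors that load the receptors into carriers at the Golgi, and Sort1, a sorting receptor, were called. Gga2 was at 185, 194 and 188 CPM in control and 136, 134 and 128 CPM with DB2313 (log2 fold change of -0.51 ± 0.07, SE, edgeR adjusted p of 1.94e-04). Gga3 fell from 74.8 to 57.7 CPM and Sort1 from 215 to 171 CPM. The summed level of the 15 genes was 1708 to 1764 CPM in control and 1562 to 1637 CPM with DB2313.

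Of 18 genes for TFEB, its relatives and regulators of these factors or of lysosomal genes, 1 was called. This was Rptor, a scaffold of the mTOR complex, which fell from 150.1 to 124 CPM (log2 fold change of -0.28 ± 0.08, SE, edgeR adjusted p of 0.0390). Tfeb itself was at 55.5, 54.5 and 56.8 CPM in control and 62.6, 53.4 and 52.4 CPM with DB2313. The groups overlapped, and the log2 fold change was 0.01 ± 0.09 (SE). Tfe3, Mitf and Tfec had log2 fold changes of -0.12, -0.023 and -0.14 and were not called.

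**Figure D4:**
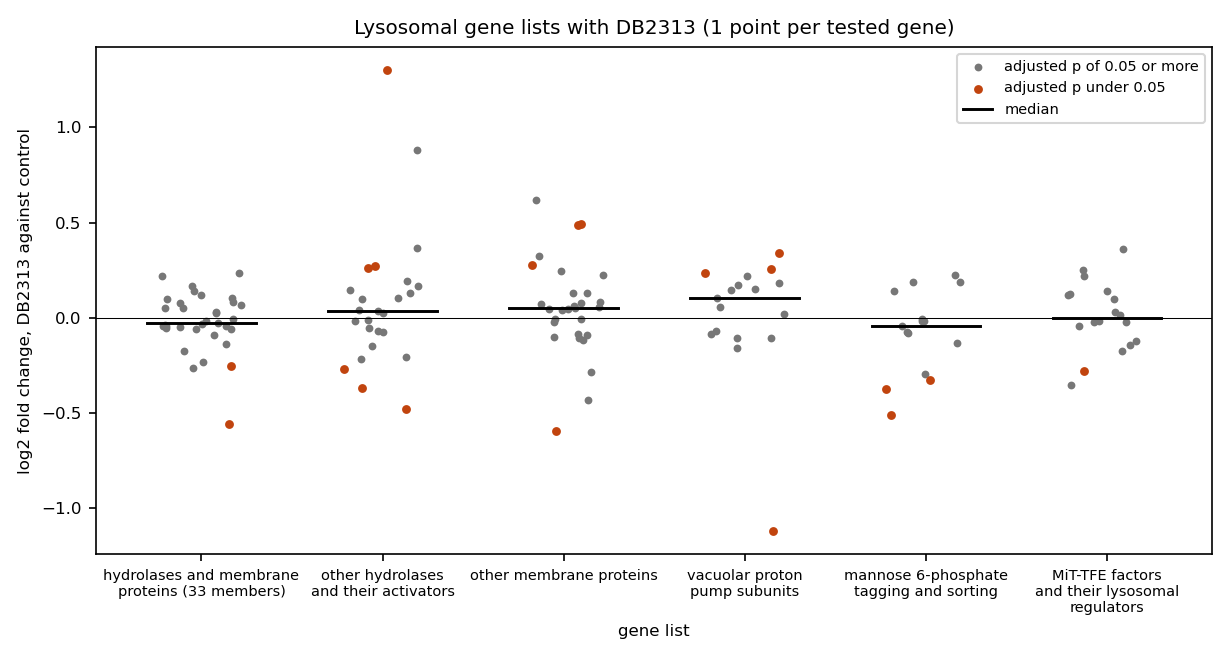
Log2 fold change with DB2313 (y axis) of each tested gene in the set of 33 and in 5 lists of other lysosomal genes (x axis), with called genes in orange and a bar at each median. Called genes are 2 of 33 in the set, both lower, and 18 of 104 in the other lists, with Atp6v0d2 the lowest point at -1.12.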

How the data were processed

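RNA-seq of 6 libraries was analysed. The deposited values are raw counts, whole numbers of reads for each gene with no normalisation by the authors, and a gene length in bp, and no library was pooled. The processing notes of the submitters name CASAVA 1.8, HISAT2 2.0.5 and featureCounts 1.5.0-p3, whereas the methods of the study name LifeScope for alignment and counting. The build and the strandedness are not given in the sources used here. GENCODE M21 holds 54409 of the identifiers, 98.33% of them with identical start and end, so coordinates are given as GRCm38. Columns were matched to samples by their names and numbers, since these differ from the titles. No labelled batch was given.

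All genes were fitted with edgeR 4.0.16 (R 4.3.3), TMM scaling, filterByExpr and the group as the only term, two-sided, with Benjamini-Hochberg adjustment over 14174 genes and a threshold of 0.05. Intervals of 95% use the error and degrees of freedom of this fit. The study named DESeq2 for its comparison. DESeq2 1.42.0 and limma-voom (limma 3.58.1) were alternatives, with other scalings, filters of none or a mean of 10 counts, a lowess offset for gene length (span of 0.3), a block for the replicate number and the omission of each library. The members and lists were chosen with earlier results of these data known. Genes called, genes whose groups do not overlap in CPM, and the most and least abundant were described in every library, as were others chosen after their values were seen. Of each other list at most the 3 genes of lowest adjusted p were named, with the factors related to TFEB added. In counts simulated for 14185 genes, the test found 89.8% of 197 genes given a 2-fold change and made 6 false calls. The simulation gave all genes a common dispersion and held no smaller changes, so these figures need not hold for the data. Copies were searched with blastn 2.17.0 (95% identity over 100 bp).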

Additional observations from a re-analysis of the deposited data

How the results depend on the processing

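Galc kept its direction and its call in all 15 alternatives (log2 fold change of -0.57 to -0.45). Scarb2 kept its direction in all 15 and its call in 7. With library totals, with the replicate block and with the replicate block plus gene-length offset, 1 of the 33 genes was called lower in place of 2, since Scarb2 lost its call (edgeR adjusted p of 0.0808, 0.115 and 0.0671). Of the 104 other lysosomal genes, 4 were called higher with the replicate block in place of 9. Replicate numbers were not taken as pairs, since deviations of same-numbered libraries correlated at 0.0035, -0.024 and -0.12. When each library was left out, 1 to 2 of the 33 genes were called lower and 0 to 1 higher (Gla, without DB2313 replicate 1), and their median log2 fold change ran from -0.053 (without DB2313 replicate 3) to 0.018 (without DB2313 replicate 1). Over all genes, 328 to 1097 were called higher and 411 to 1311 lower in these fits, against 661 and 842 with all libraries. The low counts came without DB2313 replicate 2, and without a control library the counts were 360 to 383 higher and 436 to 485 lower. The high counts came when DB2313 replicate 3 was omitted. These fits have fewer samples, and what raised the last counts was not tested. Genes near no change turned sign without being called. With library totals the log2 fold changes of Lipa and Lamp2 were 0.0057 and 0.019, and that of Lamp2 was 0.0034 with no filter, 0.056 with the gene-length offset and 0.058 with that and the replicate block. With 1 library omitted at a time, log2 fold changes ran from -0.14 to 0.069 for Lipa, -0.081 to 0.056 for Lamp2, -0.025 to 0.066 for Ppt1, -0.065 to 0.015 for Cln3, -0.084 to 0.043 for Tcirg1, -0.10 to 0.013 for Ids, -0.11 to 0.036 for Gaa, -0.053 to 0.12 for Asah1, -0.091 to 0.18 for Npc1, -0.089 to 0.017 for Mcoln1 and -0.016 to 0.15 for Man2b1. In 5 genes (Lamp2, Man2b1, Mcoln1, Npc1 and Tcirg1) a stretch of up to 400 bp matches other genes. There were 3 libraries a group, and the intervals cover the spread between libraries only.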

Other observations

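The DB2313 libraries differed among themselves in these genes. DB2313 replicate 3 was the highest of the 3 for 20 of the 33 genes and for 38.4% of all genes tested. DB2313 replicate 1 was the lowest for 15 of the 33 genes and for 38.0% of all genes tested, and these shares are not far apart. Asah1 was at 157, 181 and 200 CPM in DB2313 replicates 1 to 3, and its control libraries at 162 to 193 CPM lay inside that range. Markers of other cells moved between the same libraries. The summed level of 13 neutrophil markers was 6229, 5203 and 4765 CPM in DB2313 replicates 1 to 3 and 4671 to 5252 CPM in control. That of 11 T cell markers was 351.5, 288.5 and 231.5 CPM, and 234.2 to 275.4 CPM in control. Of these lists, 4 neutrophil genes were called higher and 1 lower, and no T cell gene was called. Of 10 mast cell and basophil markers 1 was called higher, with sums of 2424 to 2619 CPM in control and 2453 to 2947 CPM with DB2313. The B cell markers summed to 3.58 to 4.86 CPM in control and 5.83 to 7.59 CPM with DB2313, and most were near 0. Their part in the values of the lysosomal genes was not tested.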
